A study of Mus musculus with 4 samples.

Results

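Immediate early genes are switched on within minutes when a cell is stimulated, and many of the same genes, with heat shock genes, rise when tissue is taken apart into single cells. This report follows 36 of them, fixed as a list of gene names, in single nestin-GFP+ cells sorted from the mouse dentate gyrus, the part of the hippocampus where neurons are made in adult life. Of the 36, 35 had a row among the 31557 genes of the count table. The AP-1 subunit gene Jund is not analysed here. Male nestin-GFP mice, in which a nestin promoter drives the green fluorescent protein, were injected at 2 months of age into a cerebral ventricle and analysed at 3 months. The antagomir mice (n = 4) received 2 µl of Ant-132, a cholesterol-modified locked nucleic acid (LNA) oligonucleotide directed at the microRNA miR-132, dissolved in artificial cerebrospinal fluid (0.33 nmol/ml). The control mice (n = 4) received a scrambled LNA oligonucleotide in the same fluid. From each mouse 96 cells were sorted into wells and each well was sequenced by Smart-seq2, which primes at the poly(A) tail and counts reads, not molecules. Mature miR-132 was not measured, and the sorted cells also included vascular and myelinating ones.

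The members belong to a chain of events. A signal reaches transcription factors that are already present and act on response elements next to the genes, and the products include further transcription factors (FOS, JUN, EGR, NR4A, KLF), inhibitors that shut the response down again (DUSP1 and DUSP6, phosphatases of MAP kinases; ZFP36, which destabilises mRNA; NFKBIA, the inhibitor of NF-κB; SOCS3, an inhibitor of cytokine receptors) and genes that slow growth or set survival (BTG, GADD45B, MCL1). The heat shock proteins HSPA1A, HSPA1B and HSPB1 hold damaged proteins in solution. In neurons Fos, Arc, Egr1 and Npas4 are read as signs of activity. In cells freed by enzymes from solid tissue the same genes are known as part of a dissociation response.

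RefSeq promoters (GRCm38.p6) were matched for 30 of the 36 members, and the 250 bases before the annotated start were searched on both strands for 4 motifs, none of which contains another. The 30 include Jund, whose counts are not analysed here, and leave out Arc, Egr1, Egr3, Ier2, Myc and Sik1. The cyclic AMP response element TGACGTCA, to which CREB and ATF factors bind, lay in 4 of the 30, those of Btg2, Dusp1, Maff and Ppp1r15a, and in those of 1.77% of all 27025 genes, a gene counting once if any of its promoters held the motif. The core of the heat shock element, written GAANNTTC, lay in 5 of the 30, those of Fosl2, Hspa1a, Hspa1b, Hspb1 and Jun, and in those of 7.73% of all genes. The CArG box, the site of serum response factor, lay in 2 (Egr2 and Zfp36) and in those of 1.62% of all genes. The AP-1 site TGANTCA lay in 0 of the 30 and in those of 7.82% of all genes. Only exact letters in this window were searched, so a motif not found does not show that a promoter lacks such a site. The following 6 are shown because the results below turn on these genes: the heat shock genes Hspb1 (chr5:135887669-135887918, plus strand), Hspa1a (chr17:34972157-34972406, minus strand) and Hspa1b (chr17:34959239-34959488, minus strand), with the heat shock element core in capitals; Dusp1 (chr17:26508473-26508722, minus strand) and Btg2 (chr1:134079156-134079405, minus strand), with the cyclic AMP response element in capitals; and Zfp36 (chr7:28379229-28379478, minus strand), with the CArG box in capitals.
Hspb1: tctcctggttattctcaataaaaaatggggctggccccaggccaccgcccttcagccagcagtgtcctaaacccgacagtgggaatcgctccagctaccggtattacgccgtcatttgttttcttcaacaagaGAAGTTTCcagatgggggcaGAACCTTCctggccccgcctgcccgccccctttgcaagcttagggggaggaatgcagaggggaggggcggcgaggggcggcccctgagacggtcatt
Hspa1a: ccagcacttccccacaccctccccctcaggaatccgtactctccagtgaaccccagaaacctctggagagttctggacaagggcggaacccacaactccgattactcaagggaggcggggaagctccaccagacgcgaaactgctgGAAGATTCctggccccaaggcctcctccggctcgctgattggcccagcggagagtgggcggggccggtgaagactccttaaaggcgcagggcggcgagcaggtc
Hspa1b: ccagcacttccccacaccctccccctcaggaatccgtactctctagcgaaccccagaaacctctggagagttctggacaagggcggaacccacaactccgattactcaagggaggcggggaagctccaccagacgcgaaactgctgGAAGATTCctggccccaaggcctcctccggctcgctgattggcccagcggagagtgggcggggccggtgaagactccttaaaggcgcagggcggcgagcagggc
Dusp1: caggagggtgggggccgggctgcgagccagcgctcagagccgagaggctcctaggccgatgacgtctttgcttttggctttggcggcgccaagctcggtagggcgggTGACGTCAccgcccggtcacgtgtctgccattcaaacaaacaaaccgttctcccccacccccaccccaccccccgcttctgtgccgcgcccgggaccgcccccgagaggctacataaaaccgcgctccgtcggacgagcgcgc
Btg2: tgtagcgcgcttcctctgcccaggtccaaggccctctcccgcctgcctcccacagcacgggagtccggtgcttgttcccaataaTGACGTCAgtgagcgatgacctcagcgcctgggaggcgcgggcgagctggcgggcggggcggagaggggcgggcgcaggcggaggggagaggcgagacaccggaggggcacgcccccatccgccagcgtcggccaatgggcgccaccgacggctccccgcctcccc
Zfp36: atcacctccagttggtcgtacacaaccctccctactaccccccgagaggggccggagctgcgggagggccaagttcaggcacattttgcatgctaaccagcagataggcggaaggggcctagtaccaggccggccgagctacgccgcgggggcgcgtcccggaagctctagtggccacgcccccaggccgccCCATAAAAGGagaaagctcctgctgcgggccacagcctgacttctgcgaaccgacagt
Hspb1 held the core 2 times, 97 and 117 bases before the start. Hspa1a and Hspa1b each held it 104 bases before the start, and their promoters shared 247 of 250 bases. Their transcripts shared 1524 windows of 75 bases, so reads could be split between them and the value of each is uncertain. A match describes letters in a window and was not tested for binding.

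Of 768 wells, 716 had 500 to 6000 detected genes and were kept. They held 4118 to 1640971 counts, with a median of 650777. Clusters, made without the members and 6 related lists, were named from markers: 302 wells were oligodendrocyte-like, 201 RGL or astrocyte-like (radial glia-like stem cells and astrocytes share their markers), 87 endothelial-like, 84 mural-like (pericytes and smooth muscle), 25 neuroblast-like, 12 fibroblast-like and 5 oligodendrocyte precursor-like. The classes carried the markers they are named for: 13 of 14 oligodendrocyte, 16 of 16 astrocyte or radial glia, 12 of 12 endothelial and 11 of 13 mural markers were seen in at least 25% of the wells of their class. The well table's Project column holds 2 values, L5 (mice 1, 2, 5 and 6) and L6 (mice 3, 4, 7 and 8), called pools here. Mice 1 to 4 were sorted on 1 FACS day and mice 5 to 8 on another. Odd-numbered mice had the scrambled oligonucleotide and even-numbered mice the antagomir, so pool, day and treatment are balanced. The pools stood apart: the median share of mitochondrial reads was 1.16% in L5 and 4.13% in L6. FACS day and Smart-seq2 day cannot be told apart.

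The first question was which cells carried these transcripts. Taken as means of 2 classes each, the blood vessel classes carried more of them than the glial classes. Below, a member is said to rise when called higher on this mean, even where a single vascular class was not higher. Hspb1 was seen in 82 of 87 endothelial-like and 71 of 84 mural-like wells, and in only 2 of 302 oligodendrocyte-like and 2 of 201 RGL or astrocyte-like wells. Counts were summed per mouse and class and fitted with edgeR's quasi-likelihood test with mouse as a block, and p-values were adjusted by Benjamini-Hochberg over all 12560 genes tested. Of 33 members tested, 22 passed an adjusted p of 0.05 between the mean of the vascular and the mean of the glial classes. Of these, 20 were higher in the vascular classes, where 6.77% of all genes were called higher, and 2, Arc and Myc, were lower, where 28.8% were called lower (35.6% in either direction). The median log2 difference of the members was 2.80, and that of all genes -1.58. DESeq2 called 30 members (50.9% of genes) and limma on mean log2(CPM + 1) called 29 (56.5%); both added Fos, Egr1, Mcl1, Gadd45b, Maff, Ppp1r15a and Socs3, and DESeq2 also Ier5. Endothelial-like wells had a median of 1.22% mitochondrial reads, mural-like wells 1.77%, oligodendrocyte-like wells 2.34% and RGL or astrocyte-like wells 4.0%, and pool L6 gave 29 of 87, 37 of 84, 158 of 302 and 112 of 201 of these wells; the part of mitochondrial share in this difference was not tested. In sums per mouse, fewer cells with a transcript and less of it per cell cannot be told apart, so shares of wells are given as well, with every well thinned to 200000 counts.

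**Figure D1:**
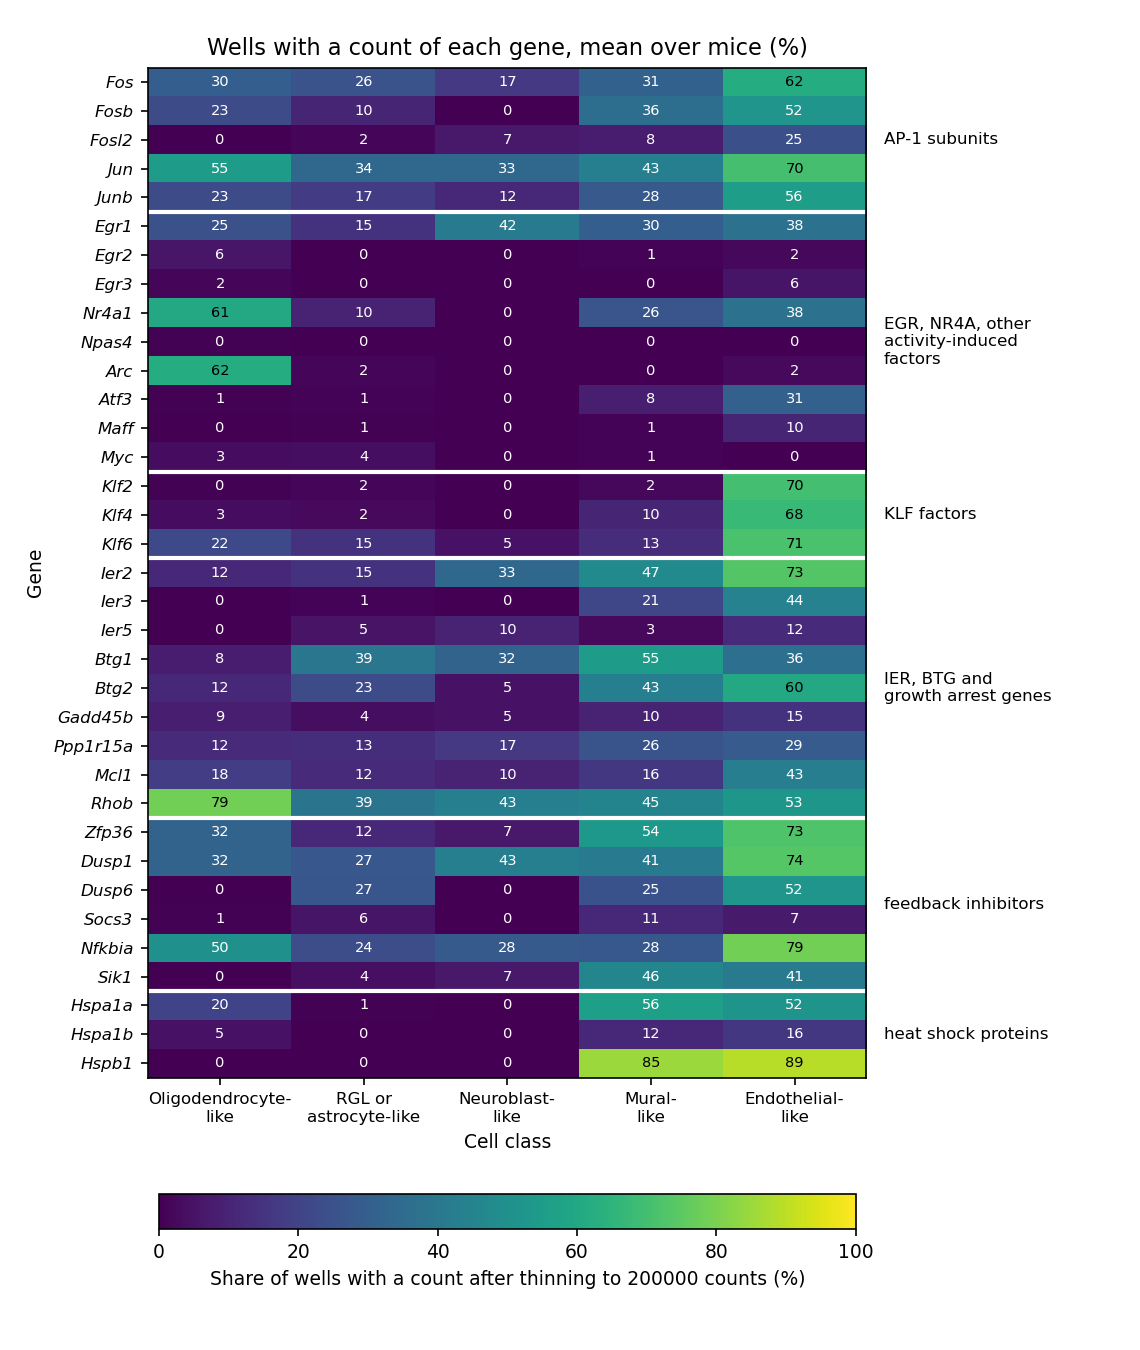
Heat map of the share of thinned wells with a count (percent, colour and printed number) of each member (rows, grouped by role) in 5 cell classes (columns), as the mean over mice (8, or 5 for neuroblast-like wells). Hspb1 stands at 89 in endothelial-like and 85 in mural-like wells and at 0 in both glial classes, and Arc at 62 in oligodendrocyte-like wells.

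Among the AP-1 subunits, which pair to bind DNA, 4 of 5 rose in the vascular classes: Jun, Junb, Fosb and Fosl2. In endothelial-like sums Jun was 559 at the lowest, 2399 at the median and 4368 at the highest (CPM, n = 7 mice; mouse 7 had 3 endothelial-like wells and was left out of sums). In oligodendrocyte-like sums Jun was 94.2 at the lowest, 254 at the median and 905 at the highest (n = 8). The vascular minus glial log2 difference of Jun was 1.88 (SE 0.52, adjusted p = 0.00578), and its mean was higher in the vascular classes in 7 of 7 mice. Junb averaged 1375 ± 959 CPM (SD, n = 7) in endothelial-like and 725 ± 767 CPM (SD, n = 8) in mural-like sums, against 116 ± 131 in oligodendrocyte-like cells and 138 ± 139.6 in RGL or astrocyte-like ones, a log2 difference of 2.45 (SE 0.60, adjusted p = 0.00232). Fosb differed by 3.13 (SE 0.90, adjusted p = 0.00777). Fosl2 was seen in 21 of 87 endothelial-like wells and 4 of 302 oligodendrocyte-like wells (adjusted p = 0.00194).

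Fos itself, the best known of the set, passed on its level in DESeq2 (adjusted p = 0.0206) and limma (1.62e-05) but not in edgeR. It averaged 3542 ± 2193 CPM (SD, n = 7) in endothelial-like, 4309 ± 4183 CPM (SD, n = 8) in mural-like, 1019.5 ± 885 CPM (SD, n = 8) in oligodendrocyte-like cells and 862 ± 897 CPM (SD, n = 8) in RGL or astrocyte-like sums. The SDs of the 2 vascular classes overlapped, as did those of the 2 glial classes, and the mural-like mean lay above the highest oligodendrocyte-like mouse (2597 CPM). Within mural-like sums it ran from 0 to 9894 CPM. The log2 difference fitted in edgeR was 1.40 (SE 0.68, adjusted p = 0.116). The share of thinned wells with Fos was higher on the mean of the vascular classes in 8 of 8 mice, by 18.6 ± 10.7 percentage points (SD). An exact two-sided sign-flip test gave p = 0.0078125, the smallest that 8 mice can give, and 0.0264 adjusted over 14538 genes. Per mouse the share was 33.3 to 82.4% in endothelial-like wells. In mural-like wells it was 0 to 66.7%, much like the 4 to 61.5% of oligodendrocyte-like wells.

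The 3 KLF factors are zinc finger proteins, of which KLF2 and KLF4 are known in endothelium as responders to flow. All 3 rose on the mean of the vascular classes, and all 3 were higher in endothelial-like than in mural-like sums (below). Klf2 was seen in 66 of 87 endothelial-like wells and in 5 of 302 oligodendrocyte-like, 4 of 201 RGL or astrocyte-like and 2 of 84 mural-like wells. Its endothelial-like level was 206 at the lowest, 399.9 at the median and 564 at the highest (CPM, n = 7), and the adjusted p was 0.000229. Klf4 had an adjusted p of 0.0165 and Klf6 differed by a log2 of 1.74 (SE 0.60, adjusted p = 0.0251).

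Of the IER, BTG and growth arrest genes, 4 of 9 rose: Ier2, Ier3, Btg2 and Btg1. IER2 and IER3 are small nuclear proteins of the early response, and BTG1 and BTG2 restrain proliferation. Ier2 was 478 at the lowest, 843 at the median and 1171 at the highest in endothelial-like sums (CPM, n = 7) and 1.19 at the lowest, 14.5 at the median and 139 at the highest in oligodendrocyte-like sums (n = 8). The highest oligodendrocyte-like mouse lay below the lowest endothelial-like mouse, and the log2 difference was 4.14 (SE 0.72, adjusted p = 6.98e-05). Ier3 was seen in 36 of 87 endothelial-like and 17 of 84 mural-like wells but in 1 of 302 oligodendrocyte-like and 3 of 201 RGL or astrocyte-like wells (adjusted p = 1.08e-05). Btg2 differed by a log2 of 2.91 (SE 0.72, adjusted p = 0.00232) and Btg1 by 1.56 (SE 0.55, adjusted p = 0.0286). Endothelial-like sums of Btg1 (5.22 to 123 CPM, n = 7) overlapped RGL or astrocyte-like ones (9.37 to 88.9 CPM), while oligodendrocyte-like sums were 1.02 to 16.6 CPM. The Btg1 call was lost in 7 of 18 alternatives. Rhob, a small GTPase of endosomes, showed a log2 difference of 0.12 (SE 0.44, adjusted p = 0.871), with the vascular mean higher in 4 of 7 mice. Ppp1r15a, which lets translation resume after stress, had 1.91 (SE 0.88, adjusted p = 0.0934). The remaining 3, Mcl1, Gadd45b and Ier5, had adjusted p-values of 0.173, 0.254 and 0.0845.

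Of the feedback inhibitors 5 of 6 rose. Sik1, a kinase that restrains CREB coactivators, was seen in 40 of 87 endothelial-like and 40 of 84 mural-like wells against 2 of 302 oligodendrocyte-like and 11 of 201 RGL or astrocyte-like wells (adjusted p = 8.05e-08). Zfp36 averaged 446 ± 183 CPM (SD, n = 7) in endothelial-like, 166 ± 155 CPM (SD, n = 8) in mural-like, 32.7 ± 28.5 CPM (SD, n = 8) in oligodendrocyte-like cells and 15.9 ± 16.8 CPM (SD, n = 8) in RGL or astrocyte-like sums. Its log2 difference was 3.21 (SE 0.47, adjusted p = 7.64e-06). Dusp1 was 1122 at the lowest, 2629 at the median and 4244 at the highest in endothelial-like sums (CPM, n = 7) and 15 at the lowest, 170.5 at the median and 461 at the highest in oligodendrocyte-like sums (n = 8). The 2 ranges did not overlap, and over all 4 classes the log2 difference was 2.03 (SE 0.53, adjusted p = 0.00362). Nfkbia differed by 1.76 (SE 0.41, adjusted p = 0.00148). Its mural-like sums (2.81 to 387 CPM) overlapped its oligodendrocyte-like sums (65.4 to 397 CPM). Dusp6 had an adjusted p of 9.01e-05. It was 0 to 359 CPM in mural-like and 70.6 to 178 CPM in RGL or astrocyte-like sums, and at most 5.36 CPM in oligodendrocyte-like sums. Socs3 did not pass, at 0.0565.

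The heat shock members, whose promoters are printed above, all rose (3 of 3). Hspb1, which guards actin filaments, was 739.9 at the lowest, 1365 at the median and 2049 at the highest in endothelial-like sums (CPM, n = 7) and 401 at the lowest, 681 at the median and 1556 at the highest in mural-like sums (n = 8). In oligodendrocyte-like sums the highest mouse had 2.28 CPM and in RGL or astrocyte-like sums 0.0853. The test gave an adjusted p of 4.67e-12, the smallest of the members; the fitted fold depends on the prior count because the glial classes are near 0. In thinned wells the share with Hspb1 was 87 ± 19.7 percentage points higher (8 of 8 mice). Hspa1a averaged 309 ± 239.7 CPM (SD, n = 7) in endothelial-like and 380.3 ± 538 CPM (SD, n = 8) in mural-like sums, 26.2 ± 25.8 CPM (SD, n = 8) in oligodendrocyte-like sums and 0.364 ± 1.01 CPM (SD, n = 8) in RGL or astrocyte-like sums (adjusted p = 1.8e-06). Hspa1b, the uncertain copy, had 0.00348.

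The EGR, NR4A and other activity-induced factors split. Atf3, a factor of the stress response, rose: it was seen in 30 of 87 endothelial-like and 9 of 84 mural-like wells and in 5 of 302 oligodendrocyte-like and 2 of 201 RGL or astrocyte-like wells (adjusted p = 0.000123). Arc, a neuronal protein that moves between synapse and nucleus, fell (adjusted p = 0.000135): it was seen in 187 of 302 oligodendrocyte-like wells, 6 of 201 RGL or astrocyte-like wells and 1 of 87 endothelial-like wells. Among the 84 mural-like wells 0 had a count, and 3 counts as the limit of a 0 allow a share of up to 3.57%. Myc was seen in 0 of 87 endothelial-like wells, which allows up to 3.45%, in 2 of 84 mural-like, 11 of 302 oligodendrocyte-like and 7 of 201 RGL or astrocyte-like wells (adjusted p = 0.0022). Mouse 1 had 55.4 CPM of it in mural-like sums, above the highest glial value (37.8), so the call rests on few wells. Egr1, Egr2, Nr4a1 and Maff did not pass in edgeR, with adjusted p-values of 0.182, 0.463, 0.274 and 0.107. Npas4, specific to neurons, was seen in 2 wells in all and was not tested.

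**Figure D2:**
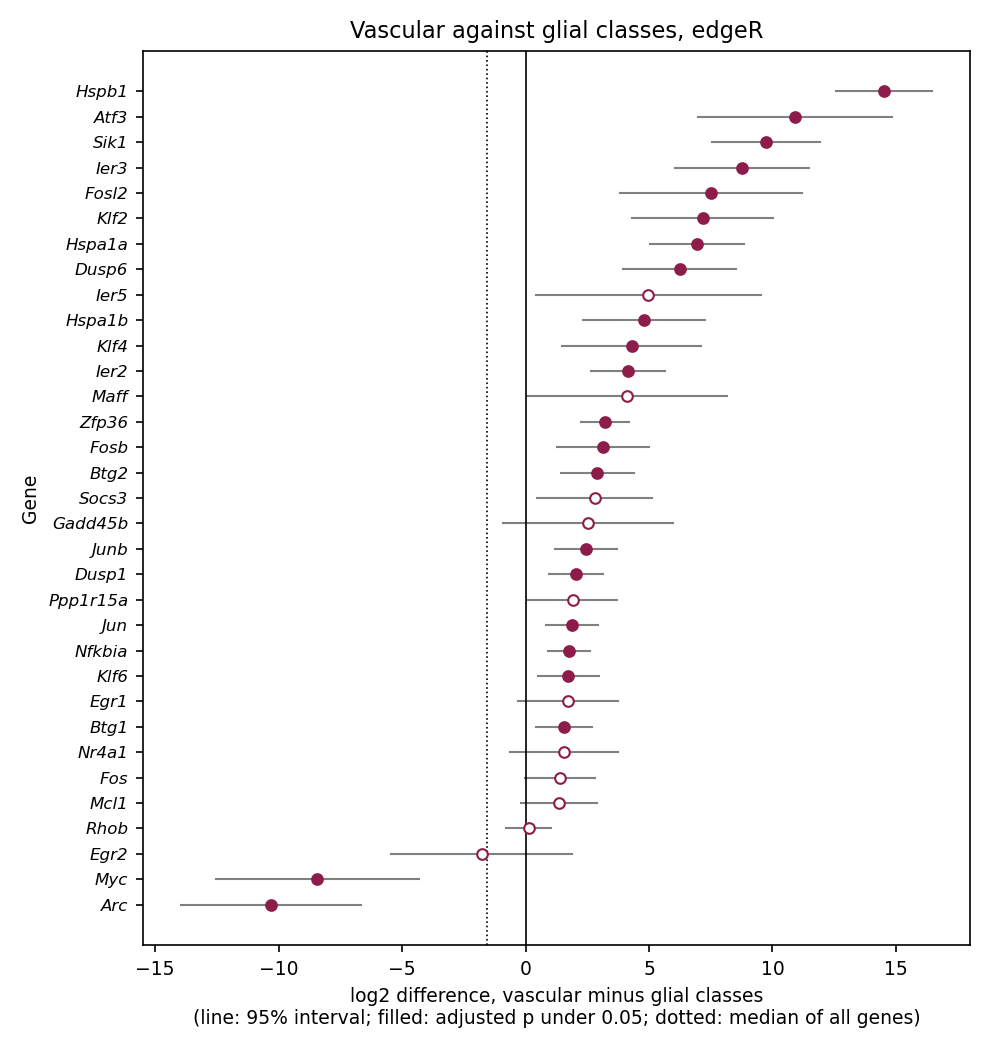
Fitted log2 difference, vascular minus glial classes (x axis), of the 33 tested members (y axis, in order of size), with 95% intervals as lines, filled points for an adjusted p under 0.05 in edgeR and a dotted line at the median of all genes (-1.58). Of the 22 filled points 20 lie right of 0 and 2, Arc and Myc, on the left; the outermost values rest on classes near 0 and depend on the prior count.

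The shares of wells gave the same count with a partly different membership: 22 members passed (40.1% of 14538 genes), 20 higher. Fos, Egr1 and Mcl1 passed on shares and not on levels in edgeR (their levels passed in DESeq2 and limma), with 14 ± 12.7 and 14.1 ± 8.21 percentage points for the last 2, while Jun, Nfkbia and Hspa1b passed on levels in edgeR and not on shares. Ier2 rose by 47.2 ± 14, Zfp36 by 41.4 ± 14.3, Sik1 by 41.3 ± 15.6, Btg2 by 34.5 ± 8.24 and Fosb by 27.6 ± 9.59 points, each in 8 of 8 mice. Arc fell by 30.5 ± 6.29 points, in 8 of 8. Fitted within pool L5 alone, edgeR called 23 of 33 members on levels (18.3% of genes), and within L6 alone 9 of 30 (18.4%).

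Single members differed between the 2 glial classes. Fitted the same way, 9 of 33 members passed between oligodendrocyte-like and RGL or astrocyte-like sums (27.3%, against 16.9% of genes). In oligodendrocyte-like cells 5 were higher (15.2%, against 6.4% of genes) and 4 lower (12.1%, near the 10.5% of genes). The median of the members was 0.64 and that of all genes -0.01. Hspa1a (adjusted p = 8.78e-05), Arc (0.00126), Hspa1b (0.0077), Egr2 (0.00792) and Rhob (0.0136) were the higher ones. Dusp6 (6.09e-05), Sik1 (0.00183), Btg1 (0.0135) and Ier5 (0.017) were the lower ones. DESeq2 called 13 (23.9% of genes), among them these 9. limma called 9 (27.3% of the members and 35.2% of genes), but not the same ones. It shared Arc, Egr2, Rhob, Dusp6 and Btg1 with edgeR and did not call Hspa1a, Hspa1b, Sik1 or Ier5. Hspa1b reached only 3.99 CPM in oligodendrocyte-like sums, and Sik1 passed 5.62 CPM in RGL or astrocyte-like sums only in mouse 8 (40.4). Within pool L5 alone 3 of 33 passed (5.97% of genes) and within L6 alone 0 of 30 (3.46%).

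Arc separated the 2 glial classes by its level in each mouse. Its oligodendrocyte-like level was 135 at the lowest, 259 at the median and 509.8 at the highest (CPM, n = 8), and its RGL or astrocyte-like level 0 at the lowest, 0.0395 at the median and 14.5 at the highest. The groups did not overlap, and Arc was seen in 61.9 ± 8.63% of thinned oligodendrocyte-like wells per mouse (SD, n = 8), 60.2 ± 9.01 percentage points more than in RGL or astrocyte-like wells. Nr4a1, an orphan nuclear receptor, was seen in 60.5 ± 6.95% of oligodendrocyte-like and 9.63 ± 9.34% of RGL or astrocyte-like wells. Its share passed (50.9 ± 7.66 points, 8 of 8 mice, exact sign-flip test, adjusted p = 0.0343) while its level missed in edgeR and passed in DESeq2 and limma (edgeR log2 4.50 (SE 1.60, adjusted p = 0.0545)). Rhob was 53.9 at the lowest, 109 at the median and 207 at the highest in oligodendrocyte-like sums and 12.9 at the lowest, 27.6 at the median and 60.4 at the highest in RGL or astrocyte-like sums, a log2 difference of 2.15 (SE 0.62, adjusted p = 0.0136). Dusp6, the phosphatase that returns ERK to rest, was seen in 53 of 201 RGL or astrocyte-like wells and 3 of 302 oligodendrocyte-like wells. Btg1 was 9.37 at the lowest, 28.8 at the median and 88.9 at the highest in RGL or astrocyte-like sums and 1.02 at the lowest, 2.18 at the median and 16.6 at the highest in oligodendrocyte-like sums, a log2 difference of -2.67 (SE 0.76, adjusted p = 0.0135). Ier5 was seen in 0 of 302 oligodendrocyte-like wells, which allows a share of up to 0.993%, and Hspa1b in 0 of 201 RGL or astrocyte-like wells, up to 1.49%.

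Members that did not pass between the glial classes in edgeR included Fos, with a log2 difference of 0.11 (SE 0.95, adjusted p = 0.985), and Jun, with 0.55 (SE 0.66, adjusted p = 0.784). Btg2 missed at 0.0775, although it was lower in oligodendrocyte-like sums in 8 of 8 mice, and Nfkbia at 0.0521. DESeq2 called Btg2, and limma called Jun and Nfkbia. On shares, 9 members passed (22.8% of genes): Arc, Nr4a1, Rhob, Nfkbia, Jun, Zfp36 and Hspa1a were higher and Btg1 and Dusp6 lower, each in 8 of 8 mice. Jun was seen in 21.6 ± 14.8 points more of the oligodendrocyte-like wells, and Nfkbia in 26.4 ± 13.6. Depth after thinning was equal, and 6 oligodendrocyte-like and 20 RGL or astrocyte-like wells were too shallow to enter. Detected genes and mitochondrial reads were not matched, and RGL or astrocyte-like cluster 3 had a median of only 881 genes.

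Inside the vessel wall, 5 of 33 members passed between endothelial-like and mural-like sums, all higher in endothelial-like cells (5.42% of genes were called higher, 5.48% lower, 10.9% in all). The median of the members was 1.52 and that of all genes 0.00. Klf2 led: its 242 mural-like counts came from 2 wells of mouse 1, and its adjusted p was 1.83e-05. Nfkbia was 405 at the lowest, 1300.4 at the median and 2072 at the highest in endothelial-like sums (CPM, n = 7) and 2.81 at the lowest, 175 at the median and 387 at the highest in mural-like sums (n = 8). The lowest endothelial-like mouse lay above every mural-like mouse, and the log2 difference was 2.88 (SE 0.62, adjusted p = 0.00211). Dusp1 differed by 3.25 (SE 0.76, adjusted p = 0.00457), Klf6 by 2.68 (SE 0.85, adjusted p = 0.0402) and Klf4 by 6.73 (SE 2.15, adjusted p = 0.0438). Hspb1 did not pass: it differed by 1.00 (SE 0.79, adjusted p = 0.519). DESeq2 called 12 (28.4% of genes) and limma 20 (16.9%). With mouse 1, 2, 3 or 5 left out 3 passed, within pool L5 1 (4.1% of genes) and within L6 1 (2.57%). Klf6 and Klf4 were the calls most often lost: of 18 alternatives, Klf6 did not pass in 11 and Klf4 in 10, against 0 for Klf2, 3 for Dusp1 and 4 for Nfkbia. On shares 0 members passed in the exact test with 8 mice (0 of 14538 genes, smallest adjusted p 0.181), and 15 had an unadjusted p under 0.05 (12.7% of genes), led by Klf2 at 67.9 ± 29.7 and Klf6 at 58.9 ± 28.3 percentage points.

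How many members a single cell carried also followed its class. After thinning, an endothelial-like well held a count of 14.5 ± 4.14 members (mean of mouse means ± SD, n = 8), with 1 in the lowest well, 17.5 at the median and 27 in the highest. A mural-like well held 8.63 ± 3.55 (0, 6 and 26), an oligodendrocyte-like well 6.04 ± 1.53 (1, 5 and 18), an RGL or astrocyte-like well 3.89 ± 1.35 (0, 3 and 16) and a neuroblast-like well 3.22 ± 1.71 (1, 3 and 9). The mural-like spread over mice reached both its neighbours in that order, and the range of mural-like wells was nearly that of endothelial-like ones. Among 181 RGL or astrocyte-like wells 24 held none. The neuroblast-like class had 25 wells, of which 9 had Egr1, 9 Dusp1, 8 Jun, 4 Fos and 12 Rhob; it was in no test.

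**Figure D3:**
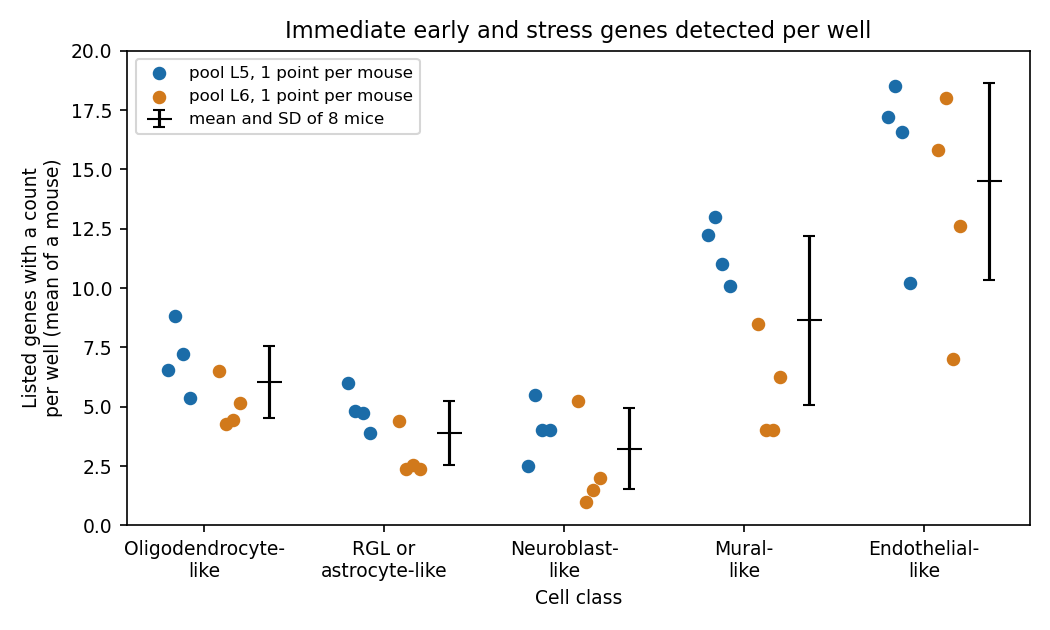
Number of members with a count in wells thinned to 200000 counts (y axis), 1 point per mouse and class (x axis), coloured by pool, with the mean and SD of 8 mice beside them. Endothelial-like means (14.5) lie above oligodendrocyte-like (6.04) and RGL or astrocyte-like means (3.89), and in mural-like cells the L5 mice lie above the L6 mice.

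Within a class the members were read in wells with and without a Fos count. Among thinned oligodendrocyte-like wells, 91 had a Fos count and 205 had none. Egr1, a partner in the same response, was seen in 75.8% against 3.41% of them, Fosb in 67% against 3.9% and Junb in 63.7% against 5.37%. Ier2 was seen in 35.2% against 1.95%, Btg2 in 34.1% against 2.44% and Dusp1 in 63.7% against 18.5%, and all 18 wells with Egr2 also had Fos. Jun was less exclusive, in 79.1% against 44.9%. Other members were seen at closer shares in both kinds of well: Arc was seen in 64.8% against 60%, Nr4a1 in 62.6% against 60% and Rhob in 76.9% against 81%. Nfkbia went the other way, in 42.9% against 53.7%, and was lower in the Fos wells in 7 of 7 mice. Spearman's correlation over the 296 wells was 0.85 between Fos and Egr1 and 0.13 between Fos and Arc, as a description of wells that share mice, depth and zeros.

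In the other classes Fos wells were also rich in Egr1. RGL or astrocyte-like wells (43 with Fos, 138 without) had Egr1 in 51.2% against 1.45%, Junb in 46.5% against 5.8%, Dusp1 in 58.1% against 14.5% and Btg2 in 48.8% against 13.8%. Here Nr4a1, whose shares in oligodendrocyte-like wells with and without Fos lay within 3 percentage points, was seen in 25.6% against 2.9%, and the difference between the classes was not tested. Endothelial-like wells (53 and 25) had Zfp36 in 98.1% against 36%, Klf4 in 84.9% against 32% and Fosb in 77.4% against 12%. Mural-like wells (25 and 51) had Egr1 in 84% against 5.88%, Junb in 80% against 5.88% and Ppp1r15a in 68% against 3.92%, while Hspb1 was alike, in 84% against 84.3%. Fos wells also differed in where they came from: in oligodendrocyte-like cells 63 were from pool L5 and 28 from L6, against 78 and 127 of the others, and their median mitochondrial share was 1.33% against 2.99%. In RGL or astrocyte-like cells the median depth was 698000 counts in Fos wells and 562957 in the others, before thinning. The part of pool, mitochondrial reads and depth in these pairs was not tested.

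**Figure D4:**
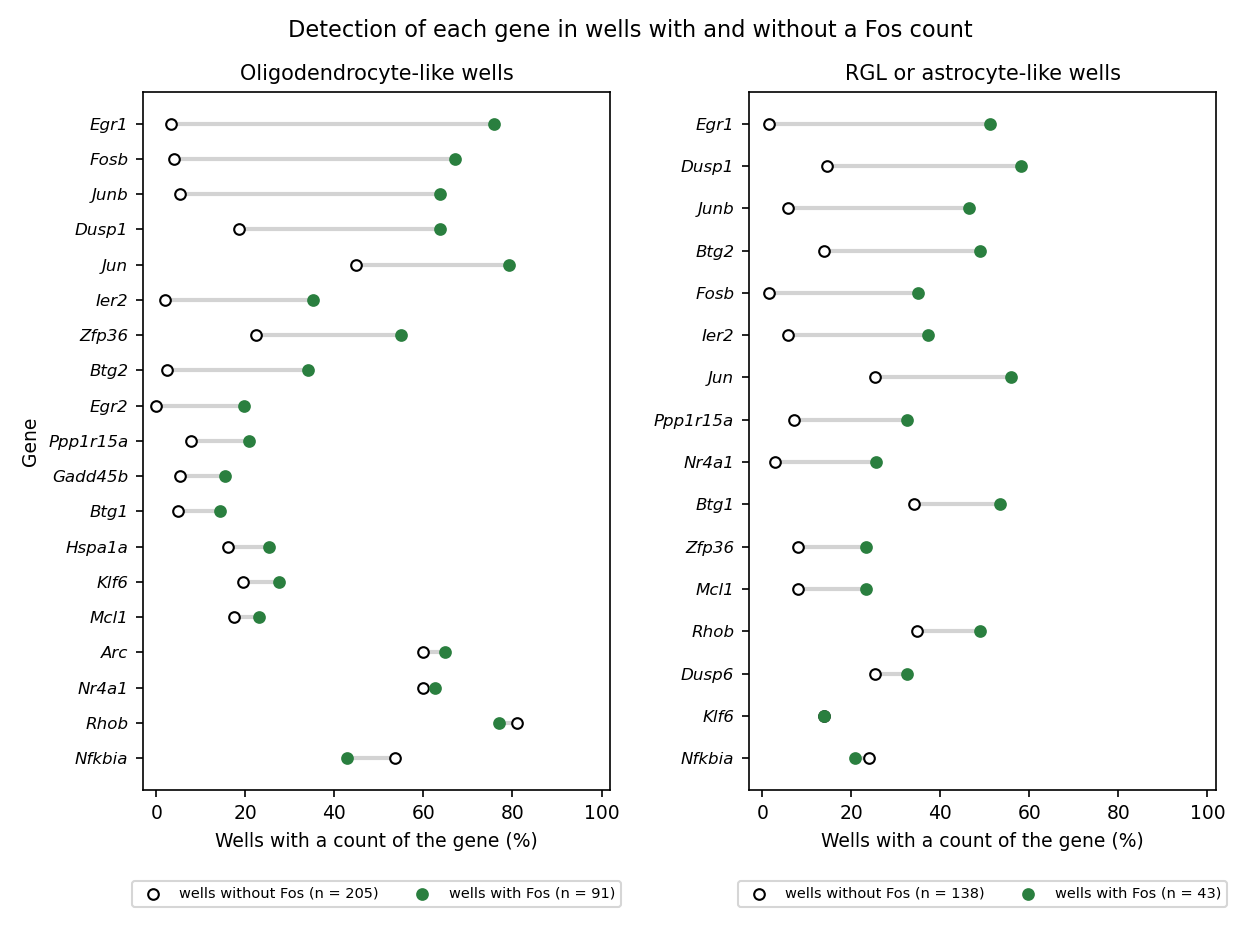
Share of thinned wells (percent, x axis) with a count of the more often seen members (y axis) among wells with Fos (filled) and without (open), in oligodendrocyte-like wells on the left (91 and 205) and RGL or astrocyte-like wells on the right (43 and 138). Egr1, Fosb and Junb lie far apart in both panels, while Arc, Nr4a1 and Rhob lie close together in oligodendrocyte-like wells.

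Between mice, the members' levels went with the pool. In all kept wells Fos was 3124, 3211, 2415 and 2696 CPM in the L5 mice (1, 2, 5 and 6) and 1252, 131, 145 and 398 in the L6 mice (3, 4, 7 and 8). No L6 mouse reached an L5 mouse, and mouse 3 was the highest of L6. The means were 2861 ± 373 and 481 ± 528 (SD, n = 4 each), and the L6 minus L5 log2 difference, with treatment and FACS day in the fit, was -2.74 (SE 0.69, adjusted p = 0.253). None of the 34 members tested passed an adjusted p of 0.05 in edgeR (0.0325% of 18466 genes did), so the following are values and not calls. At an unadjusted p under 0.05, 18 members were lower in L6, where 6.29% of all genes were, and 1, Rhob, was higher (5.58%). For 15 members the L6 mice lay wholly below the L5 mice (4.09% of genes), and the median difference over the members was -1.41, against -0.01 over all genes. DESeq2 called 16 members (8.04% of genes) and limma 10 (0.596%).

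Of the AP-1 subunits, Jun was 1352, 1472, 634 and 1265 CPM in the L5 mice and 446, 197, 129.7 and 203 in the L6 mice, with a log2 difference of -2.29 (SE 0.35, adjusted p = 0.144). Junb was 685, 778, 463 and 566 and 242, 16.2, 20.9 and 27.7, with -3.63 (SE 0.81, adjusted p = 0.222). Neither gene's groups overlapped. Fosb averaged 282 ± 65.3 CPM in L5 and 36.3 ± 35.7 in L6, log2 -3.03 (SE 0.74, adjusted p = 0.249). Egr1 was 816, 821, 490.1 and 701 CPM in L5 and 476, 21.2, 40.3 and 130.3 in L6, without overlap (-2.30 (SE 0.87, adjusted p = 0.381)). Of the feedback inhibitors, Dusp6 averaged 145 ± 56.1 CPM in L5 and 63.7 ± 23.4 in L6, log2 -1.17 (SE 0.19, adjusted p = 0.145), and Dusp1 794 ± 339 CPM in L5 and 231 ± 174 in L6, log2 -1.77 (SE 0.49, adjusted p = 0.28). Socs3 was 46.7, 50.2, 30.7 and 208 CPM in L5 and at most 2.12 in L6. Of the heat shock genes, Hspa1a averaged 133 ± 71.7 CPM in L5 and 25.2 ± 26.4 in L6, log2 -3.13 (SE 0.77, adjusted p = 0.249), and Hspb1 323 ± 76 CPM in L5 and 126 ± 59.3 in L6, log2 -1.38 (SE 0.40, adjusted p = 0.289). Rhob went the other way, with 79.5, 78.6, 67.2 and 36.9 CPM in L5 and 148, 59.9, 155 and 118 in L6; the groups overlapped through mouse 4 (log2 0.87 (SE 0.35, adjusted p = 0.403)).

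The pools also differed in how many wells of each class they held, so each glial class was read alone. In oligodendrocyte-like sums 0 of 25 members passed in edgeR (0.0857% of genes); 7 were lower at an unadjusted p under 0.05 (5.39% of genes) and 1, Rhob, was higher (4.87%). The L6 mice lay wholly below the L5 mice for 8 members (2.76% of genes) and wholly above for Rhob (5.55%). DESeq2 called 6 (5.84%) and limma 5 (0.607%). Arc was 384, 387, 306 and 509.8 CPM in L5 and 201, 135, 212 and 182 in L6, a log2 difference of -1.22 (SE 0.21, adjusted p = 0.124). Rhob was 89.4, 95.4, 89.5 and 53.9 in L5 and 176, 123, 207 and 129.9 in L6 (0.85 (SE 0.23, adjusted p = 0.267)). Fos was 1181, 2597, 1747 and 1261 and 927, 4.53, 33.8 and 406, without overlap (-2.50 (SE 1.29, adjusted p = 0.548)). The median over the members was -1.51 and over all genes 0.02.

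In RGL or astrocyte-like sums 0 of 26 members passed (0.0505% of genes), 7 were lower at an unadjusted p under 0.05 (2.74%) and 0 higher (2.39%), and 4, Fos, Junb, Egr1 and Socs3, did not overlap (2.42%). DESeq2 called 7 (2.76%) and limma 4 (0.26%). Fos was 2663, 669.5, 1337 and 1360.5 CPM in L5 and 611, 159, 67.8 and 31.7 in L6 (-3.52 (SE 0.65, adjusted p = 0.333)). Junb was 358, 156, 251 and 266 and 50.2, 0.395, 1.29 and 23.1 (-3.87 (SE 1.24, adjusted p = 0.872)). Btg2, by contrast, averaged 131 ± 51.4 and 136 ± 73.8. Whether the pool difference itself differed between the glial classes was tested as an interaction: 0 of 21 members passed (0 of 11010 genes), 0 had an unadjusted p under 0.05 (2.96% of genes), and DESeq2 and limma called 0 (1.83% and 0.0182%). The closest was Junb, at a log2 of 1.82 (SE 0.83, unadjusted p = 0.0553). Mural-like Fos, not tested between pools, was 9894, 6127, 6971 and 9183 CPM in L5 and 1019.8, 0.307, 0 and 1279.6 in L6.

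The pool pattern was also visible in shares of thinned wells, where 4 mice against 4 cannot give an exact two-sided permutation p under 0.0286 and no adjusted p passed (smallest 0.581 in all wells, 0.716 in oligodendrocyte-like cells and 0.764 in RGL or astrocyte-like wells; 4.92%, 3.99% and 3.74% of genes had an unadjusted p under 0.05, as did 5, 4 and 7 members). In all wells Fosb was seen in 37.5% of wells in L5 and 10.6% in L6, and Junb in 39.6% and 13%. Fos was seen in 47.7%, 67%, 47.6% and 32.1% of the wells of the L5 mice and 34.8%, 13.1%, 4.71% and 17.1% of those of the L6 mice, so that, unlike its level, its share overlapped between the pools through mice 3 and 6 (exact permutation p = 0.0571). Arc was seen in 64.5%, 59%, 47.5% and 77.4% of oligodendrocyte-like wells in L5 and 60%, 60%, 68.2% and 58.5% in L6, overlapping. In RGL or astrocyte-like wells Fos was seen in 42.1% and 9.4%, and in oligodendrocyte-like wells Rhob in 71.7% and 85.7%. The mean number of members per thinned mural-like well was 11.6 ± 1.3 in L5 and 5.69 ± 2.15 in L6 (SD, n = 4), without overlap. The L6 means rest on 10, 14, 6 and 4 thinned wells in mice 3, 4, 7 and 8. Oligodendrocyte-like wells held 7.0 ± 1.43 in L5 (5.39 to 8.82 over mice) and 5.09 ± 1.0 in L6 (4.28 to 6.49), with overlap. Endothelial-like wells held 15.6 ± 3.71 and 13.4 ± 4.78, with overlap. Oligodendrocyte-like cluster 1 came to 16.5% from L6 and cluster 2 to 76.2%; within cluster 1 Fos was seen in 45 of 100 L5 wells and 3 of 20 L6 wells, and within cluster 2 in 18 of 41 and 25 of 135. Of the RGL or astrocyte-like clusters, cluster 3 came to 73% from L6, cluster 5 to 56.6% and cluster 6 to 34.3%. Fos was seen in 19 of 52 L5 and 5 of 66 L6 wells of cluster 5, in 14 of 22 and 4 of 12 of cluster 6 and in 1 of 9 and 0 of 20 of cluster 3. Dusp1 was seen in 12 of 52 and 14 of 66 wells of cluster 5 and in 14 of 22 and 3 of 12 of cluster 6. Median mitochondrial shares were 1.13% and 3.76% in oligodendrocyte-like cells and 1.71% and 5.85% in RGL or astrocyte-like wells. The 13 microglia markers summed to 19.9 to 60.5 CPM in the oligodendrocyte-like cells of L5 mice and 50 to 334 in L6, with 1 marker at 0. These microglia ranges overlapped, as did those in RGL or astrocyte-like sums (32.1 to 143 CPM in L5 and 24.4 to 255 in L6). The 8 oligodendrocyte precursor markers summed to 0.773 to 8.97 CPM in oligodendrocyte-like cells of L5 mice and 2.09 to 451 in L6, also overlapping. Pool, mitochondrial share and such traces of RNA from other cells cannot be told apart here.

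**Figure D5:**
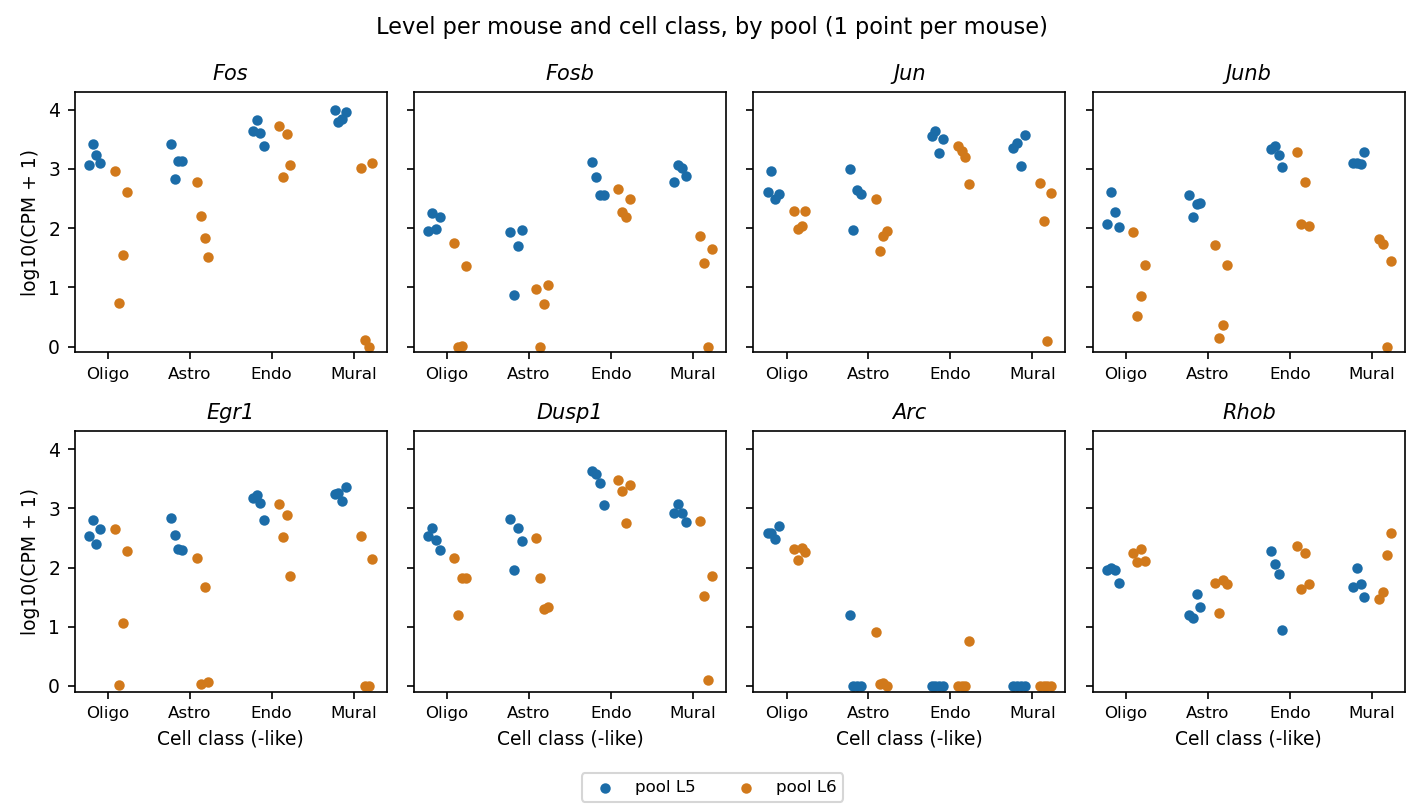
Level of 8 members as log10(CPM + 1) (y axis) in sums per mouse and class (x axis, short for oligodendrocyte-like, RGL or astrocyte-like, endothelial-like and mural-like), 1 point per mouse, coloured by pool; the 3 endothelial-like wells of mouse 7 are drawn here. In oligodendrocyte-like and mural-like sums every L6 point of Fos lies below every L5 point, and Rhob runs the other way in oligodendrocyte-like sums.

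FACS day was balanced over pools and treatments. Between the days 0 members passed in edgeR in all wells, oligodendrocyte-like or RGL or astrocyte-like sums (0% of genes in each). At an unadjusted p under 0.05, 3 members were lower on the second day in all wells (2.99% of genes), 3 in oligodendrocyte-like sums (1.89%) and 1 in RGL or astrocyte-like sums (1.43%), and 0 were higher (1.82%, 2.02% and 1.19%). DESeq2 called 1, Dusp6, in all wells (1.07% of genes) and 0 in the glial classes (0.388% and 0.913%), and limma 0 (0% of genes). Dusp6 was 180.4, 204, 87 and 80.2 CPM in mice 1 to 4 and 106, 88.6, 39.5 and 48 in mice 5 to 8, overlapping, with a log2 difference of -0.91 (SE 0.19, adjusted p = 0.909). In oligodendrocyte-like sums Hspa1a was 60.7, 64.4, 8.18 and 41.9 and 20.6, 7.22, 1.5 and 5.04 (-2.45 (SE 0.72, adjusted p = 1)). An endothelial-like well held 17.4 ± 1.18 members on the first day and 11.6 ± 4.03 on the second. The days overlapped through mouse 3 (15.8) and mouse 5 (16.6). The second-day means rest on 9, 10, 3 and 5 thinned wells in mice 5 to 8, with the lowest, 7, from the 3 wells of mouse 7.

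The study's own comparison, antagomir against scrambled oligonucleotide, called no member. In edgeR 0 of 34 members passed in all wells (0% of 15447 genes), 0 of 22 in oligodendrocyte-like sums (0% of 10786) and 0 of 21 in RGL or astrocyte-like sums (0% of 11352). No member had an unadjusted p under 0.05, where 0.958% of genes were higher and 0.855% lower in all wells, 0.816% and 1.14% in oligodendrocyte-like cells and 0.837% and 0.705% in RGL or astrocyte-like sums. DESeq2 called 0 members (0.0657%, 0.131% and 0.0717% of genes) and limma 0 (0% of genes). Fos was 3124, 1252, 2415 and 145 CPM in the scrambled mice (1, 3, 5 and 7) and 3211, 131, 2696 and 398 in the antagomir mice (2, 4, 6 and 8), with a log2 difference of -0.14 (95% interval -2.36 to 2.07, adjusted p = 1). In both groups the low mice were those of pool L6, and the interval is wide on both sides of 0. The fit held treatment alone, without pool or FACS day, so the spread between pools is part of the interval.

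Arc was steadier over mice and its interval narrower: 159.6, 125, 157 and 127 CPM with the scrambled oligonucleotide and 195, 47.1, 202 and 117 with the antagomir, a log2 difference of -0.04 (95% interval -0.92 to 0.83, adjusted p = 1). In oligodendrocyte-like cells, where Arc was seen most, it was 384, 201, 306 and 212 and 387, 135, 509.8 and 182 (0.11 (95% interval -0.83 to 1.06, adjusted p = 1)). Hspb1 averaged 224 ± 142 and 224 ± 123 CPM in all wells (-0.02 (95% interval -1.30 to 1.25, adjusted p = 1)). The smallest unadjusted p in all wells was that of Rhob, 0.162, with 79.5, 148, 67.2 and 155 CPM against 78.6, 59.9, 36.9 and 118. In RGL or astrocyte-like sums it was that of Jun, 0.0559, with 1009, 311, 439.6 and 73.3 against 91.7, 39.8, 378 and 88.4 and a log2 difference of -1.66 (SE 0.78, adjusted p = 1); the groups overlapped. Members per thinned well were 6.18 ± 1.2 and 5.91 ± 2.0 in oligodendrocyte-like wells, 4.42 ± 1.43 and 3.37 ± 1.2 in RGL or astrocyte-like and 14.1 ± 4.8 and 14.8 ± 4.09 in endothelial-like cells. On shares 1.96%, 1.98% and 1.63% of genes had an unadjusted p under 0.05. Among members only Ppp1r15a did, in RGL or astrocyte-like wells, at 19.1 ± 3.39% against 7.17 ± 5.56% (exact permutation p = 0.0286, adjusted 1).

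Genes around the members were read from 6 further lists. Between the vascular and glial classes 6.77% of all genes were called higher and 28.8% lower, with a median of -1.58. These shares stand beside each count of rises and falls below. Of 26 other immediate early genes tested, 5 rose in the vascular classes, among them Zfp36l1 (log2 6.58 (SE 0.79, adjusted p = 3.38e-07)) and Cyr61 (6.33 (SE 1.01, adjusted p = 2.15e-05)), and 1 fell, with a median of 0.67. Sgk1, a kinase of ion transport, had 2079.6 ± 1104 CPM in oligodendrocyte-like cells and 0.678 ± 1.21 in RGL or astrocyte-like sums (adjusted p = 1.91e-05). Of 22 other heat shock proteins, 1 rose and 3 fell in the vascular classes, with a median of -0.69 (all genes: 6.77% higher, 28.8% lower, median -1.58), and 6 were higher and 1 lower in oligodendrocyte-like than in RGL or astrocyte-like sums, with a median of 0.79 (6.4%, 10.5% and -0.01). Cryab, a small heat shock protein related to HSPB1, had 4917 ± 1142 CPM in oligodendrocyte-like cells and 121 ± 39.1 in RGL or astrocyte-like sums, a log2 difference of 5.59 (SE 0.46, adjusted p = 1.76e-09), and Hsp90aa1 differed by 2.76 (SE 0.38, adjusted p = 7.32e-06). Of the 21 factors and kinases upstream of immediate early genes, 3 rose (Mef2c, Elk3 and Mef2a) and 1 fell (Elk1).

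Among inhibitors of receptor tyrosine kinase signalling, the family around DUSP6, 3 of 13 rose and 5 fell in the vascular classes (all genes: 6.77% higher, 28.8% lower). Dusp10 was the strongest on the glial side, with 108 ± 36.4 CPM in oligodendrocyte-like and 0.0974 ± 0.186 in endothelial-like sums (adjusted p = 1.38e-05), and Spry1 on the vascular side, with 58.8 ± 41.9 CPM in endothelial-like and 0.832 ± 2.34 in oligodendrocyte-like sums (adjusted p = 0.000323). Of 15 NF-κB and cytokine genes 2 rose and 3 fell; the oncostatin M receptor gene Osmr had 384 ± 307 CPM in endothelial-like and 0.00508 ± 0.0144 in oligodendrocyte-like sums (adjusted p = 2.49e-08). Of 9 genes of the integrated stress response 1, Ddit3, fell (-3.44 (SE 1.18, adjusted p = 0.0241)) and 0 rose, so fewer fell than the 28.8% of all genes. In edgeR 0 genes of the 6 lists passed for treatment, pool, FACS day or the interaction. Their median L6 minus L5 differences in all wells were -0.52 for other immediate early genes, 0.09 for heat shock proteins, -0.17 for the tyrosine kinase inhibitors, 0.07 for upstream factors, -0.75 for NF-κB and cytokine genes and -0.83 for the integrated stress response, beside -1.41 for the members.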

How the data were processed

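Gene counts per well and a table of wells, as deposited by the authors, were the input; values are whole read counts per gene (not normalized), since Smart-seq2 carries no molecular identifiers. Per the submitters' processing notes, FastQC, STAR 2.5.2, Subread's featureCounts 1.5.1, Seurat 2.3.1 and the mouse build mm10 were used; the labels do not say which step each served. The members and gene lists were chosen with earlier results of these data known. Wells with 500 to 6000 detected genes were kept and no doublet caller was run. Wells were clustered in scanpy 1.11.5 (2000 variable genes, 20 components, 15 neighbours, Leiden resolution 1) after removing 158 member and related genes. A cluster was named from markers when at least 3 of them were seen in 25% of its wells.

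Counts were summed per mouse, or per mouse and class (at least 5 wells), and tested with edgeR 4.0.16 (TMM, filterByExpr, quasi-likelihood, Benjamini-Hochberg over all genes tested). DESeq2 1.42.0, limma 3.58.1 and leaving out each mouse were alternatives. CPM values are counts scaled by the total of the same sum. Shares of wells used wells thinned to 200000 counts and exact tests over mice, computed in numpy 2.4.6. These were adjusted over all 14538 genes, where the plan had adjustment over the members, and the number of members per well was not tested, where the plan had a test. The pipeline was tested on simulated counts. Groups come from the well table's treatment, mouse, FACS and Project columns. The mouse was the replicate, and summed depth was 43996495 to 69191485 counts per mouse. Limits for a count of 0 cover counting error only, and intervals of fitted differences (t quantiles from scipy 1.17.1) include the spread between mice.

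All members could be named. Values per mouse were reserved for members called in a comparison and the lowest and highest of each role group; of each other list at most 4 genes were named, those called with the smallest p. Members named outside this rule, among them those in the pool comparison, were chosen after their values were seen.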

Additional observations from a re-analysis of the deposited data

Results flagged for a closer look

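In 16 of 89 groups of 7 or 8 mice, 1 mouse lay far above the others for a member; the limit used is one that chance passes in about 1 in 20 groups of normally distributed values, whereas these levels are skewed with zeros, all 16 lay on the high side, and the groups share mice and wells. In oligodendrocyte-like sums mouse 2, of pool L5 and the antagomir group, had Jun at 905 CPM (others 94.2 to 402), Junb at 401 (2.29 to 186), Ier2 at 139 (1.19 to 58.1) and Btg2 at 103 (0 to 39.9). In RGL or astrocyte-like sums Jun was 1009 in mouse 1 (39.8 to 439.6) and Btg1 88.9 in mouse 3 (9.37 to 36.8).

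In endothelial-like sums mouse 3, the L6 mouse with the highest member levels, had Ier3 at 1097 (151 to 239.6), Ier5 at 320.4 (0 to 73.4) and Zfp36 at 803 (247 to 483). Ppp1r15a was 528 in mouse 2 (1.52 to 212) and Hspa1b 138 in mouse 4 (0 to 5.52). In mural-like sums Fosl2 was 137 in mouse 6 (0 to 53.9) and Socs3 1249 (0 to 260.3). Nr4a1 was 1297 in mouse 1 (0 to 454), Hspa1a 1624 in mouse 2 (0 to 597) and Rhob 377 in mouse 8 (28.7 to 164).

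The 16 wells left out for over 6000 detected genes, which no comparison used, held a count of 28.5 members at the median (20 to 32); 15 of them had Fos and together they held 34 of the 35 members. The 36 wells left out for under 500 genes held 0.5 at the median (0 to 4).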

How the results depend on the processing

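Over the alternatives, 284 counts of called members stayed within 1.5 times of the reported count, of which 236 were 0 as reported and 0 again, many in tests of 4 mice against 4 that can hardly pass and so show nothing of stability, and 48 were above 0. Another 34 moved, 0 values reversed, and 50 means of members per well stayed within 1 SD. For single called members 548 tests under an alternative passed as well and 108 did not. The pool count of 0 became 16 in all wells, 6 in oligodendrocyte-like sums and 7 in RGL or astrocyte-like sums with DESeq2, and 10, 5 and 4 with limma; the FACS day count of 0 became 1 with DESeq2. Vascular minus glial calls were 9 within pool L6 and 7 within the second FACS day, and 20 to 24 with 1 mouse left out. Oligodendrocyte-like minus RGL or astrocyte-like calls were 3 within L5, 0 within L6, 2 within the first day and 1 within the second, and 8 to 10 with 1 mouse left out. Endothelial-like minus mural-like calls were 12 with DESeq2, 20 with limma, 1 within each pool, 2 and 1 within the days, and 3 to 5 with 1 mouse left out. Fits within a pool or day hold 4 mice, and these, like leaving out the astrocyte-like cluster with few genes, were chosen after seeing the data. The share of all genes called is not given here for the days or for levels with 1 mouse left out. Those counts alone are therefore no result about the members. With 1 mouse left out, the share tests called 14 to 22 members between vascular and glial classes (14 without mouse 1, 3 or 5). Over all 14538 genes they called 4568 to 4971. Between the glial classes they called 0, where 7 mice cannot give a p under 0.015625 and the smallest adjusted p was 0.0622 to 0.0653. Replicate numbers in the labels name samples, not mice; with a replicate block of the antagomir and scrambled mouse of the same FACS day and pool, treatment called 0 members in each set, as without the block, and the deviations of such mice correlated at -0.01 to 0.15. With 4 mice a group, the treatment interval of Fos ran from -2.36 to 2.07 (log2). Pool and FACS day were not in that fit. The interval therefore includes the spread between pools and is no bound on what these mice could show.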
